A study of Mus musculus with 8 samples.

Results

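The genes described here encode the nuclear subunits of the mitochondrial respiratory chain and of ATP synthase. They were taken by symbol: every gene whose name starts with Nduf and a letter a, b, c, s or v before a digit, with Uqcr, with Atp5, or with Cox and a digit from 4 to 8. The rule found 78 of the 19516 genes with a probe on the array. By symbol, 35 were assigned to complex I, 8 to complex III, 18 to complex IV and 17 to ATP synthase. Ndufa4, now known as a complex IV subunit despite its name, is counted among the 35. Where a gene had several probes, the probe with the highest mean log2 median signal stood for it. Genes were tested if some group had both its samples well above background, which held for 77 of the 78. The exception was Cox4i2, a complex IV isoform known from lung, which was below background in all 8 samples.

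In the respiratory chain, complex I takes electrons from NADH, complex III passes them to cytochrome c, and complex IV hands them to oxygen, while protons are pumped across the inner mitochondrial membrane. ATP synthase uses the proton gradient to make ATP. Most subunits are made in every cell, but complex IV has tissue isoforms: Cox6b2, Cox7b2 and Cox8c are known from testis and sperm, and Cox6a2, Cox7a1 and Cox8b from heart and skeletal muscle, with Cox7a1 and Cox8b also used as marks of brown fat. White fat holds fewer mitochondria than brown fat.

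CFT Swiss albino mice aged 5 weeks were injected intraperitoneally for 8 days with saline, with obestatin (a peptide from the ghrelin precursor), with the N-terminal peptide of obestatin, or with Nt8U, an analog of that fragment whose change is not given in the sources used here. The source name in the labels is fat pad, and their other fields speak of epididymal tissue. The design text gives 80 ng/kg and 6 mice per group, whereas the growth protocol gives 80 nmol/kg and 3 mice per group, and the conflict was not resolved here. Each of the 4 groups had 2 samples, both hybridised to the same 2-colour array, with replicate 1 in Cy3 and replicate 2 in Cy5, so array and group cannot be told apart, nor can dye and replicate. Whether a group's 2 samples were separate mice or pools is not stated, and a p-value here reflects no more than how far these samples spread, which may be technical.

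The median spot of a sample measured 73 to 231.5 intensity units over a background of 22 to 31, and precision is limited by having only 4 arrays. Adipocyte markers were found in every sample: 11 of the 12 listed genes were on the array and all 11 were well above background in all 8 samples. The samples also differed in testis germ cell markers, 18 genes such as the protamine Prm1 and the sperm lactate dehydrogenase Ldhc, of which 16 to 18 were above background in each sample. Their median log2 signal was 8.71, 8.93 and 8.74 in replicate 1 of saline, N-terminal peptide and Nt8U, and 14.94, 14.93 and 13.78 in replicate 2 of the same groups. In the obestatin samples it was 11.02 and 9.62. Of the 18 genes, 6, 8 and 6 were saturated in replicate 2 of saline, N-terminal peptide and Nt8U, and 0 in each other sample. The highest values in those 3 samples are therefore approximate. Epididymis markers, of which 12 of 14 were on the array, had medians from 6.36 in Nt8U replicate 1 to 16.37 in saline replicate 1. Both ends are approximate, since 3 of the 12 were well above background in the former and 6 were saturated in the latter. Medians of the adipocyte markers were 11.82 and 11.19 (saline), 14.10 and 13.25 (obestatin), 11.54 and 8.66 (N-terminal peptide), and 15.11 and 13.34 (Nt8U). In a sample, 0 to 4 of these 11 genes were saturated. By the median of the germ cell markers, replicate 2 of saline, N-terminal peptide and Nt8U thus stood apart from the other 5 samples. Not every marker followed: Prm1, Prm2 and Tnp1 had their highest values in obestatin replicate 1 (16.18, 16.53 and 16.08). Saturated spots in replicate 2 of the other 3 groups limit such rankings. Those 3 samples are called rich in germ cell markers below, by the median alone. Results were also computed without them, a choice made after seeing the data. In such bulk samples, fewer cells of a type and less RNA per cell cannot be told apart.

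Promoter windows from RefSeq (GRCm38.p6, 250 bases before to 50 after the start) were matched to 65 of the 78 genes, as 70 windows of 300 bases. Both strands were searched for motifs of factors known to act on nuclear genes for mitochondrial proteins. The palindromic NRF1 consensus motif was present in 22.9% of the members' windows and in 4.60% of all 32851 windows. It was found in 33.3% of the ATP synthase windows, 23.5% of the complex I windows and 7.69% of the complex IV windows. The ETS motif CCGGAAG, the core bound by GABPA, was in 21.4% of the members' windows and 8.86% of all windows. The YY1 motif was in 7.14% against 0.852%, and the GC box GGGCGG in 38.6% against 35.7%. The E box CANCTG, whose matches are not marked in the windows below, was in 38.6% against 51.4%. The MEF2 and PPAR motifs were in 0 of the members' windows and in 0.164% and 0.0396% of all windows. No motif's letters contain those of another, but matches of different motifs may overlap in a window. A match only describes the letters of the window.

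These 6 windows are shown because the results below turn on these genes: the testis isoforms Cox6b2 and Cox7b2, their somatic relatives Cox6b1 and Cox7b, the somatic subunit 8 gene Cox8a, and Cox8b. Capitals mark matches of the NRF1, ETS, GC box, YY1, CRE (TGACGTCA) and ERR (TCAAGGTCA) motifs on either strand. The windows lie at chr7:4753045-4753344 (Cox6b2, minus strand), chr5:71548156-71548455 (Cox7b2, minus strand), chr7:30626065-30626364 (Cox6b1, minus strand), chrX:106015450-106015749 (Cox7b, plus strand), chr19:7217567-7217866 (Cox8a, minus strand) and chr7:140900397-140900696 (Cox8b, minus strand).
Cox6b2: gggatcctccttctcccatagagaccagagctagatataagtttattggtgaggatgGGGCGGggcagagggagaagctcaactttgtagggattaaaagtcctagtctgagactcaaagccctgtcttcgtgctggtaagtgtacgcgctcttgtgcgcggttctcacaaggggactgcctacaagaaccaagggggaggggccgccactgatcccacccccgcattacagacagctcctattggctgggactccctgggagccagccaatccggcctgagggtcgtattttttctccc
Cox7b2: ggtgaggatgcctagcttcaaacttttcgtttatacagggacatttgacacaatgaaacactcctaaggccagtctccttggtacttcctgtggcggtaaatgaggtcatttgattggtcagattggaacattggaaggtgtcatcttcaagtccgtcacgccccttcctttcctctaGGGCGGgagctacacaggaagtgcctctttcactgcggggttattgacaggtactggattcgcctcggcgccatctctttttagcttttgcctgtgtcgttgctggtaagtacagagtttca
Cox6b1: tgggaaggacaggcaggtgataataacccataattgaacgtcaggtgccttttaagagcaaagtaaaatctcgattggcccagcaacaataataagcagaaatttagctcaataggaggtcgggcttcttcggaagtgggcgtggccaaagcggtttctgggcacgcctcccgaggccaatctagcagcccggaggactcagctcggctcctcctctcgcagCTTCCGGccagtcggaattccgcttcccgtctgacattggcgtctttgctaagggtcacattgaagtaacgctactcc
Cox7b: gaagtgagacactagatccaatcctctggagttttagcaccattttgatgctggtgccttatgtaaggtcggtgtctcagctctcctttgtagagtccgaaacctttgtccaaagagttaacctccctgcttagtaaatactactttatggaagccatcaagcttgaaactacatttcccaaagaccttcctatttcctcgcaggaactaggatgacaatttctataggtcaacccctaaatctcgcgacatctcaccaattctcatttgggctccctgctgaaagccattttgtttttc
Cox8a: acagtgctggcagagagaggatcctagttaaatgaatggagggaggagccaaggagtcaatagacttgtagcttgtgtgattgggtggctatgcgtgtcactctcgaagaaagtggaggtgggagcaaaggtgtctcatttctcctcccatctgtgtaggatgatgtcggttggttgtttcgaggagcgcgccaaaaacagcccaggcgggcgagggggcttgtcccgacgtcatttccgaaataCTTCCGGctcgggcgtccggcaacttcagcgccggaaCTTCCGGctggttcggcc
Cox8b: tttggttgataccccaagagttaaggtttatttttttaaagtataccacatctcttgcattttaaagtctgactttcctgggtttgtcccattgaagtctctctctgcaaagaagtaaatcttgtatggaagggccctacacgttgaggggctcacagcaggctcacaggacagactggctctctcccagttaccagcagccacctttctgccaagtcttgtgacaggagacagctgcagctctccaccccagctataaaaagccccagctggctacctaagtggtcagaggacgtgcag
The Cox6b2 and Cox7b2 windows each held 1 GC box. The Cox6b1 window held 1 ETS motif and the Cox8a window 2, all on the opposite strand (CTTCCGG). None of the marked motifs was found in the Cox7b and Cox8b windows.

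Signals were measured on the log2 scale after normalization, and each value below is a level of 1 probe, to be set only against the same probe in other samples. Of the 78 genes, 74 were well above background in all 8 samples. Saturated spots occurred in 12 genes, with 0 to 8 genes saturated in a sample. The range of a gene over the 8 samples had a median of 1.13 log2 units among the 77 tested members and 1.96 among the 15414 genes tested. By complex, the median range was 0.98 for complex I, 1.13 for complex III, 0.86 for ATP synthase and 1.82 for complex IV. The widest ranges were those of Cox8c (7.94), Cox7b2 (5.81), Cox8b (5.22), Cox6b2 (4.89) and Cox7b (4.17), all complex IV genes. The low ends of Cox7b2 and Cox8b were not well above background and 1 spot of Cox8c was saturated, so their ranges and order are approximate. The narrowest were those of Ndufb2 (0.29), Atp5j2 (0.42), Uqcrc2 (0.43), Ndufa6 (0.44) and Atp5md (0.45).

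**Figure D1:**
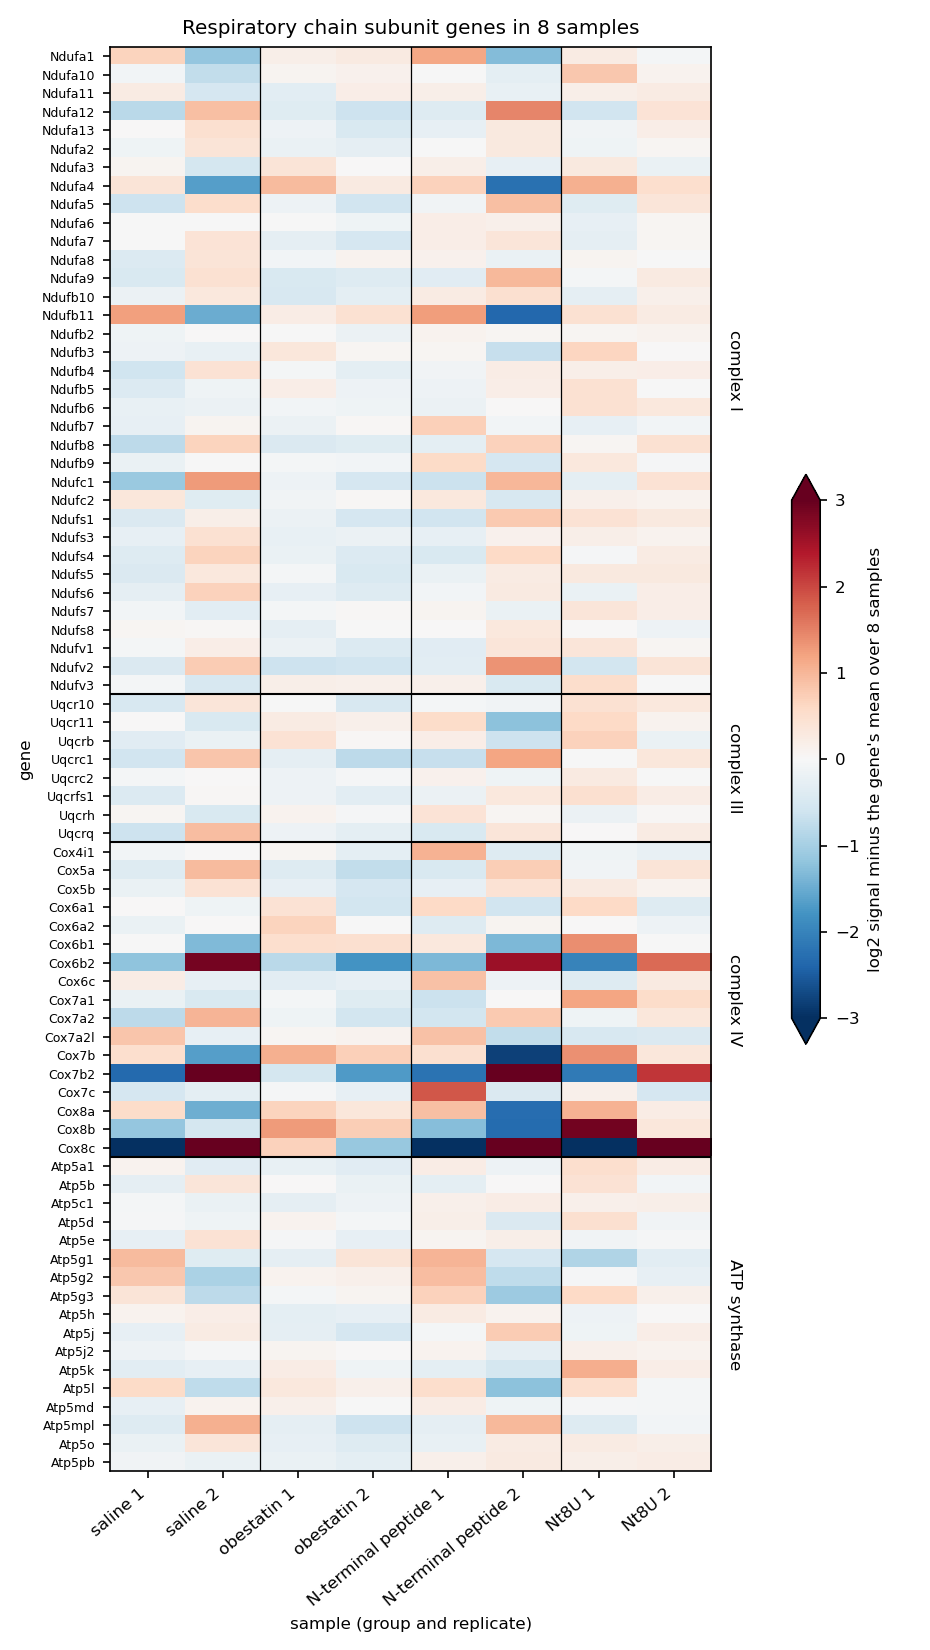
Normalized log2 signal of the 77 tested subunit genes (rows, by complex) in the 8 samples (columns), shown as the difference from each gene's mean over the samples, with colours capped at 3 log2 units. Most rows are pale, and the strongest colours belong to Cox8c, Cox7b2, Cox8b and Cox6b2 in complex IV.

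Cox8c, the testis isoform of subunit 8, had log2 signals in replicates 1 and 2 of 8.03 and 15.68 (saline), 12.24 and 10.40 (obestatin), 8.18 and 15.23 (N-terminal peptide), and 7.74 and 14.82 (Nt8U). Its spot in replicate 2 of the N-terminal peptide group was saturated. Cox7b2, the testis isoform of subunit 7b, had 6.56 and 12.37 (saline), 8.38 and 7.21 (obestatin), 6.69 and 12.19 (N-terminal peptide) and 6.78 and 11.06 (Nt8U). The value of saline replicate 1 was not well above background. Cox6b2, the testis isoform of subunit 6b, had 9.47 and 13.55 (saline), 9.87 and 8.87 (obestatin), 9.32 and 13.24 (N-terminal peptide) and 8.66 and 12.37 (Nt8U). For all 3 genes the high samples were replicate 2 of saline, N-terminal peptide and Nt8U, the samples with the highest medians of germ cell markers. The replicates of each of these 3 groups lay further apart than any of the group means did, so the groups overlapped.

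The germ cell isoforms of other mitochondrial proteins were highest in the same 3 samples. Cyct, the cytochrome c of sperm, had 6.72 and 13.84 (saline), 9.83 and 8.41 (obestatin), 7.28 and 14.12 (N-terminal peptide) and 6.88 and 12.84 (Nt8U). For Slc25a31, the germ cell adenine nucleotide carrier, the lowest value was 6.89 in N-terminal peptide replicate 1 and the highest 11.64 in replicate 2 of that group. Pdha2, the testis form of a pyruvate dehydrogenase subunit, lay between 6.47 in saline replicate 1 and 13.80 in N-terminal peptide replicate 2. Somatic Cycs had its lowest value, 12.33, in N-terminal peptide replicate 2 and its highest, 14.37, in replicate 1 of that group. High values in the 3 samples were not particular to germ cell isoforms. The assembly factor Uqcc2 had 11.80 and 15.39 (saline), 12.41 and 11.52 (obestatin), 11.52 and 15.07 (N-terminal peptide) and 11.72 and 14.21 (Nt8U). Of all tested genes, 21.2% were over 2-fold higher in replicate 2 than in replicate 1 of all 3 groups.

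Within the 3 arrays that held a sample rich in germ cell markers, 3 members were more than 2-fold higher in replicate 2 than in replicate 1 on every one, and these were Cox6b2, Cox7b2 and Cox8c, against 21.2% of all tested genes. Of the 77 tested members, 2 were lower by more than 2-fold in replicate 2 of all 3 groups, near the 3.10% of all tested genes. They were Cox6b1 and Cox7b, the somatic relatives of 2 of the testis isoforms. No trait of the members is read from this count. In Cox6b1, log2 signals were 9.16 and 7.83 (saline), 9.66 and 9.64 (obestatin), 9.49 and 7.82 (N-terminal peptide) and 10.55 and 9.15 (Nt8U). Cox7b had 12.12 and 9.98 (saline), 12.67 and 12.33 (obestatin), 12.09 and 8.81 (N-terminal peptide) and 12.99 and 11.96 (Nt8U). Replicate 2 was the lower sample of every group for both genes. Cox8a, the somatic subunit 8, was lower in replicate 2 of saline (13.44 against 15.45) and of the N-terminal peptide group (12.61 against 15.79), and differed less in Nt8U (15.12 against 15.95) and obestatin (15.23, saturated, against 15.56). The part of germ cell RNA, or of the dye that each replicate carried, in these differences was not tested.

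**Figure D2:**
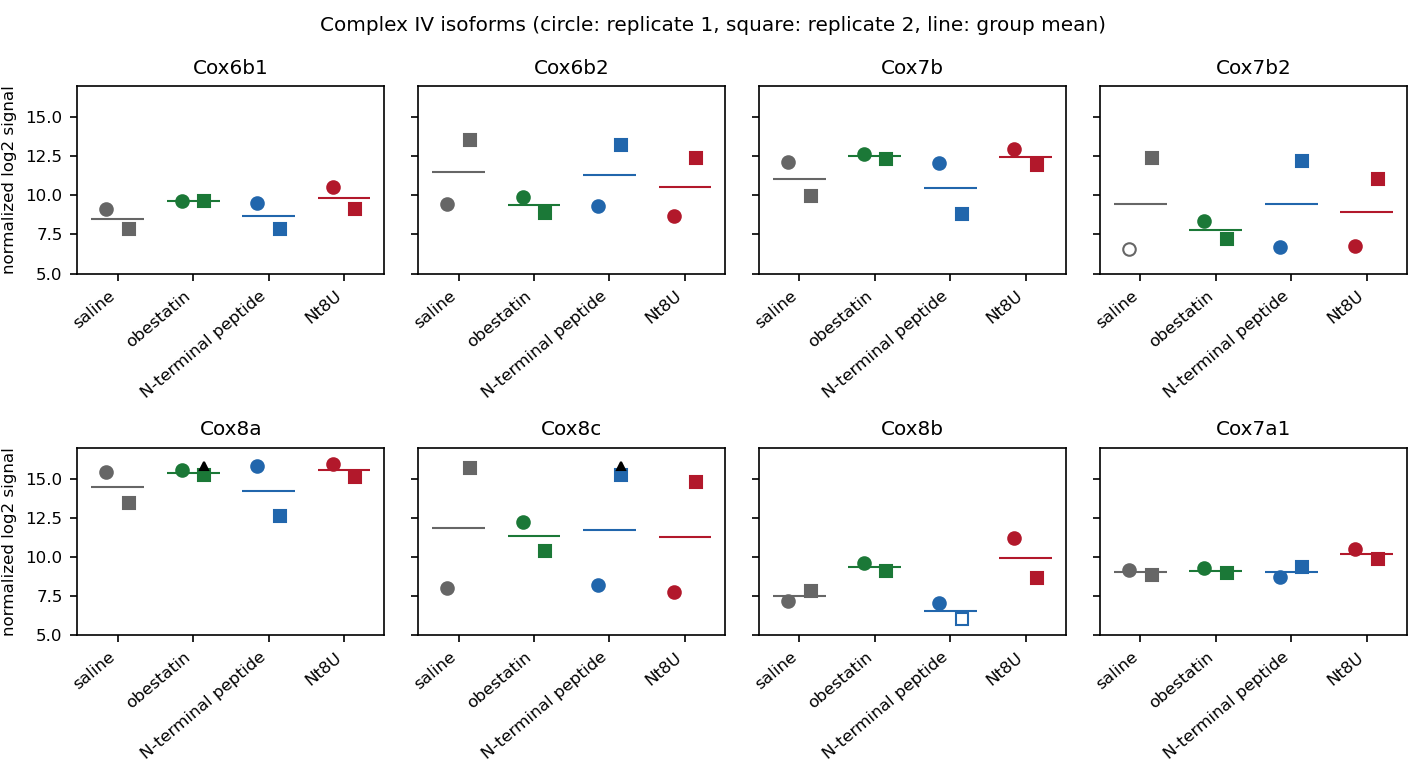
Normalized log2 signal (vertical axes) of 8 complex IV isoform genes by group, with circles for replicate 1, squares for replicate 2 and a line for the mean of the 2. Open symbols were not well above background and a triangle marks a saturated spot. Cox6b2, Cox7b2 and Cox8c are high in replicate 2 of saline, N-terminal peptide and Nt8U, Cox6b1 and Cox7b are lower there, and Cox8b is highest in Nt8U replicate 1 at 11.23.

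The spread between replicates differed by array. In saline, 15 members were over 2-fold higher in replicate 2 and 11 lower, against 29.8% and 21.6% of all tested genes. In the N-terminal peptide group the counts were 13 and 18, against 30.3% and 26.7%. In Nt8U they were 3 and 3, against 27.3% and 9.10%, and in obestatin 0 and 3, against 1.46% and 7.31%. The correlation of the replicates over all tested genes, a description across genes that are not independent, was 0.58 in saline, 0.97 in obestatin, 0.55 in the N-terminal peptide group and 0.75 in Nt8U.

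Over all tested members, the isoforms included, 11 were over 2-fold higher in replicate 2 of both saline and the N-terminal peptide group, and another 11 were lower, where 27.4% and 18.4% of all tested genes did so. Besides the 3 testis isoforms, the higher members were Cox5a and Cox7a2 of complex IV, Ndufa12, Ndufc1, Ndufs4 and Ndufv2 of complex I, Uqcrc1 of complex III and Atp5mpl of ATP synthase. The lower members were Cox6b1, Cox7a2l, Cox7b and Cox8a with Ndufa1, Ndufa4, Ndufb11 and the c-ring and membrane genes Atp5g1, Atp5g2, Atp5g3 and Atp5l. Ndufb11, an accessory subunit of complex I, had 15.05 and 12.34 (saline), 14.04 and 14.27 (obestatin), 15.08 and 11.46 (N-terminal peptide) and 14.28 and 14.06 (Nt8U). Ndufa4, now known as a complex IV subunit despite its name, had 13.61 and 11.56, 14.17 and 13.49, 13.90 and 10.98, and 14.27 and 13.73 in the same order. Both genes were lowest in N-terminal peptide replicate 2, and next lowest in saline replicate 2. Subunits of 1 complex thus differed in opposite directions: Ndufa12, another accessory subunit of complex I, had 12.89 in saline replicate 1 and 14.60 in replicate 2.

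**Figure D3:**
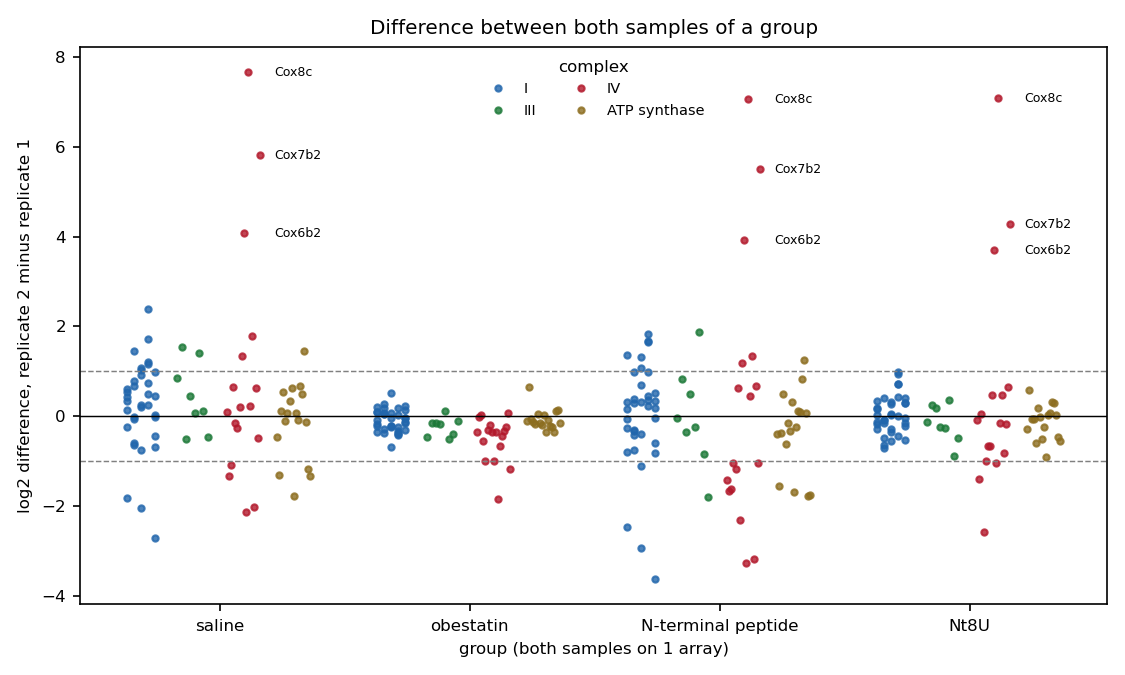
Log2 difference of replicate 2 minus replicate 1 (vertical axis) for each of the 77 tested members in the 4 groups, coloured by complex, with dashed lines at a 2-fold difference. Saline and N-terminal peptide members scatter widely, from -3.61 to 7.65 over these groups, whereas the obestatin members lie between -1.84 and 0.65.

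Between groups, no member and no other gene passed limma's test with Benjamini-Hochberg adjustment over the 15414 genes in any of the 6 comparisons (background 0%). The lowest adjusted p of a member was 0.60 for obestatin against saline (Cox6b1), 1 for N-terminal peptide against saline, 0.53 for Nt8U against saline (Cox8b), 0.22 for Nt8U against N-terminal peptide (Cox8b), 0.33 for N-terminal peptide against obestatin (Cox8b) and 0.99 for Nt8U against obestatin. At an unadjusted p under 0.05, no member passed for obestatin against saline, where 7.35% of all genes were higher and 1.30% lower, nor for N-terminal peptide against saline, where 0.104% were higher and 0.662% lower. For Nt8U against saline 4 members were higher and 0 lower (6.92% and 1.19% of all genes), for Nt8U against N-terminal peptide 3 and 0 (9.19% and 1.86%), for N-terminal peptide against obestatin 1 and 2 (0.999% and 9.33%), and for Nt8U against obestatin 1 and 0 (0.260% and 1.04%). Apart from the single higher member in each of the last 2 comparisons, the counts lay under what these shares would give among 77 genes. Calls appeared when obestatin replicate 1 was left out, which leaves that group 1 sample, in Cy5. The dye term then rests on the other 3 groups, whose Cy5 samples were the 3 rich in germ cell markers. Dye and germ cell content cannot be told apart in that fit, so no conclusion is drawn from it. Cox6b1 then differed between obestatin and saline by 1.88, and Cox6b2, Cox7b2 and Cox8c by -4.59, -4.86 and -5.08. Between the Cy5 samples alone these differences were 1.81, -4.68, -5.17 and -5.28, and between the Cy3 samples 0.50, 0.40, 1.82 and 4.21. For N-terminal peptide against obestatin, Cox6b1 differed by -1.72, Cox6b2 by 4.36, Cox7b2 by 4.83, Cox8c by 4.94 and Ndufa12 by 1.90. For Nt8U against obestatin, Cox6b2, Cox7b2 and Cox8c differed by 3.60, 4.31 and 4.51. Without the 3 samples rich in germ cell markers, saline, N-terminal peptide and Nt8U keep 1 sample each and the spread comes from the obestatin pair alone. For Nt8U against saline 29 genes (0.188%), none of them a member, were then under the threshold, and 7 members (9.09%) had an unadjusted p under 0.05 against 23.2% of all genes.

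Cox8b, the muscle and brown fat isoform of subunit 8, showed the largest difference between 2 groups of any member. Its log2 signals were 7.17 and 7.81 (saline), 9.62 and 9.07 (obestatin), 7.06 and 6.01 (N-terminal peptide, replicate 2 not well above background) and 11.23 and 8.66 (Nt8U). Both obestatin samples and both Nt8U samples lay above all samples of the other groups, and the Nt8U samples spread more than the others. The mean in Nt8U exceeded that in the N-terminal peptide group by 3.41 ± 0.80 (SE, n = 2 per group, limma unadjusted p = 0.0091, adjusted p = 0.22) and that in saline by 2.46 ± 0.80 (limma unadjusted p = 0.030, adjusted p = 0.53). It was lower in the N-terminal peptide group than in obestatin, by -2.81 ± 0.80 (limma adjusted p = 0.33), and obestatin exceeded saline by 1.85 ± 0.80 (limma adjusted p = 0.60). Per dye, the difference between Nt8U and saline was 4.07 in Cy3 and 0.85 in Cy5, and without Nt8U replicate 1 it was 1.33. The N-terminal peptide mean holds 1 sample that was not well above background, so the differences against that group are approximate.

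Cox7a1, the muscle and brown fat isoform of subunit 7a, had 9.14 and 8.87 (saline), 9.27 and 8.97 (obestatin), 8.70 and 9.34 (N-terminal peptide) and 10.53 and 9.88 (Nt8U). Both Nt8U samples lay above the other 6 samples. The excess over saline was 1.20 ± 0.41 (SE, n = 2 per group, limma unadjusted p = 0.035, adjusted p = 0.54), and over obestatin 1.08 ± 0.41 (limma adjusted p = 0.99). Cox6a2, the muscle isoform of subunit 6a, stayed near background, between 6.34 and 7.38. The 11 skeletal muscle markers had a median log2 signal of 6.65 to 7.96 over the samples, but single genes were high in single samples, as the myosin Myh2 was in obestatin replicate 2 (13.01) and N-terminal peptide replicate 1 (12.86) and the troponin Tnnc2 in Nt8U replicate 2 (14.20). The 5 brown and beige fat markers that are not members had medians of 6.47 to 7.79. Among them Ucp1, the uncoupling protein of brown fat, was above background in 4 of 8 samples with signals from 5.96 to 6.79, and Cidea, a lipid droplet protein, lay between 7.74 and 12.26. Cox8b and Cox7a1 were highest in Nt8U replicate 1, the sample with the highest median of adipocyte markers (15.11), and the part of adipocyte content in their levels was not tested.

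Cox6b1 was higher in Nt8U than in saline by 1.36 ± 0.49 (SE, n = 2 per group, limma unadjusted p = 0.043, adjusted p = 0.58). Cox7b was lower in the N-terminal peptide group than in obestatin by -2.05 ± 0.77 (limma unadjusted p = 0.048, adjusted p = 0.48). Both genes differed by more than 2-fold between the replicates of saline and of the N-terminal peptide group. The remaining members of complex IV gave no group that stood apart. Cox4i1, the ubiquitous subunit 4, had 16.56 in N-terminal peptide replicate 1 and between 15.15 and 15.58 in the other 7 samples, of which replicate 2 of obestatin and of Nt8U were saturated. Cox7c, a small subunit, likewise had 11.60 in that sample and 9.22 to 9.88 elsewhere, so that its difference between N-terminal peptide and saline, 1.12 ± 0.68 (SE, n = 2 per group, limma adjusted p = 1), was 0.08 without it. Cox6a1, the somatic subunit 6a, was saturated in both Nt8U samples and in replicate 2 of the other groups. No fold or direction between groups is therefore drawn from it, and the differences listed for it below are limited by saturation. Cox7a2, the somatic relative of Cox7a1, had 13.27 and 15.07 in saline and 13.93 and 13.50 in obestatin. Cox7a2l, which helps complexes III and IV to form supercomplexes, had 12.53 and 11.44 in saline and 11.21 and 11.27 in Nt8U, a difference of -0.75 ± 0.54 (SE, n = 2 per group, limma adjusted p = 0.87).

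Among the 35 complex I genes, the median difference was -0.10 for obestatin, 0.13 for N-terminal peptide and 0.14 for Nt8U, each against saline. Ndufa10, an accessory subunit, came nearest to the threshold for Nt8U against saline: it had 11.33 and 10.68 in saline and 12.21 and 11.50 in Nt8U, a difference of 0.86 ± 0.33 (SE, n = 2 per group, limma unadjusted p = 0.051, adjusted p = 0.62). Ndufb10, an accessory subunit of the membrane arm, had 14.19 and 14.37 (obestatin) and 14.92 and 15.15 (N-terminal peptide). These groups did not overlap and differed by 0.76 ± 0.28 (SE, limma unadjusted p = 0.044, adjusted p = 0.46), but the difference was -0.11 after quantile normalization of single channels. Ndufa7, an accessory subunit, was lower in obestatin than in saline by -0.59 ± 0.31 (SE, n = 2 per group, limma adjusted p = 0.64).

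Complex III members had median differences of -0.06, 0.04 and 0.31 for obestatin, N-terminal peptide and Nt8U against saline. Uqcrfs1, the Rieske iron-sulfur protein, had 12.80 and 13.25 in saline and 13.68 and 13.44 in Nt8U, where 7 of the 8 members had a positive difference. Its difference was 0.53 ± 0.34 (SE, n = 2 per group, limma adjusted p = 0.83). Uqcrh, the hinge protein, differed between N-terminal peptide and saline by 0.42 ± 0.31 (limma adjusted p = 1), and Uqcrb, a small subunit, between obestatin and saline by 0.50 ± 0.37 (limma adjusted p = 0.65).

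ATP synthase members had median differences of -0.10, 0.02 and 0.14 against saline in the same order. Atp5k, the e subunit that helps ATP synthase form dimers, had 11.00 and 11.07 (saline), 11.53 and 11.18 (obestatin), 11.03 and 10.80 (N-terminal peptide) and 12.41 and 11.50 (Nt8U). Nt8U replicate 1 was the high sample, and replicate 2 lay just under the highest obestatin sample. Nt8U exceeded saline by 0.92 ± 0.35 (SE, n = 2 per group, limma unadjusted p = 0.050, adjusted p = 0.61). Atp5h, of the peripheral stalk, differed between obestatin and saline by -0.42 ± 0.27 (limma adjusted p = 0.65), and Atp5pb, of the same stalk, between N-terminal peptide and saline by 0.37 ± 0.27 (limma adjusted p = 1).

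The median difference of the 77 members was -0.08 for obestatin against saline, 0.05 for N-terminal peptide against saline, 0.14 for Nt8U against saline, 0.09 for Nt8U against N-terminal peptide, 0.20 for N-terminal peptide against obestatin and 0.27 for Nt8U against obestatin, where the medians of all genes were 0.0017, 0.015, -0.12, -0.16, -0.0008 and 0.025. Relative to those medians the members lay 0.25 higher in Nt8U than in saline, 0.25 higher than in N-terminal peptide and 0.24 higher than in obestatin. Without saline replicate 1 the members' median for Nt8U against saline was -0.07, where that of all genes was -0.11, and without Nt8U replicate 1 it was -0.02 against N-terminal peptide, where that of all genes was -0.06. These comparisons share samples. Members in which both samples of the first group lay above both of the second, or below, numbered 13 and 15 for obestatin against saline (26.2% and 12.7% of all genes), 4 and 1 for N-terminal peptide against saline (4.24% and 4.87%) and 19 and 4 for Nt8U against saline (15% and 10.6%). They numbered 9 and 8 for Nt8U against N-terminal peptide (16.5% and 11.3%), 19 and 5 for N-terminal peptide against obestatin (14.7% and 23.2%) and 35 and 4 for Nt8U against obestatin (10.7% and 22.1%). The sign of the members' median depended on the scaling in 3 comparisons: quantile normalization of single channels gave 0.43 for obestatin against saline and -0.43 for N-terminal peptide against obestatin, and -0.03 for N-terminal peptide against saline. For Nt8U against saline, N-terminal peptide and obestatin it stayed positive, at 0.45, 0.49 and 0.07. The replicate SD of the members' median was 0.14.

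**Figure D4:**
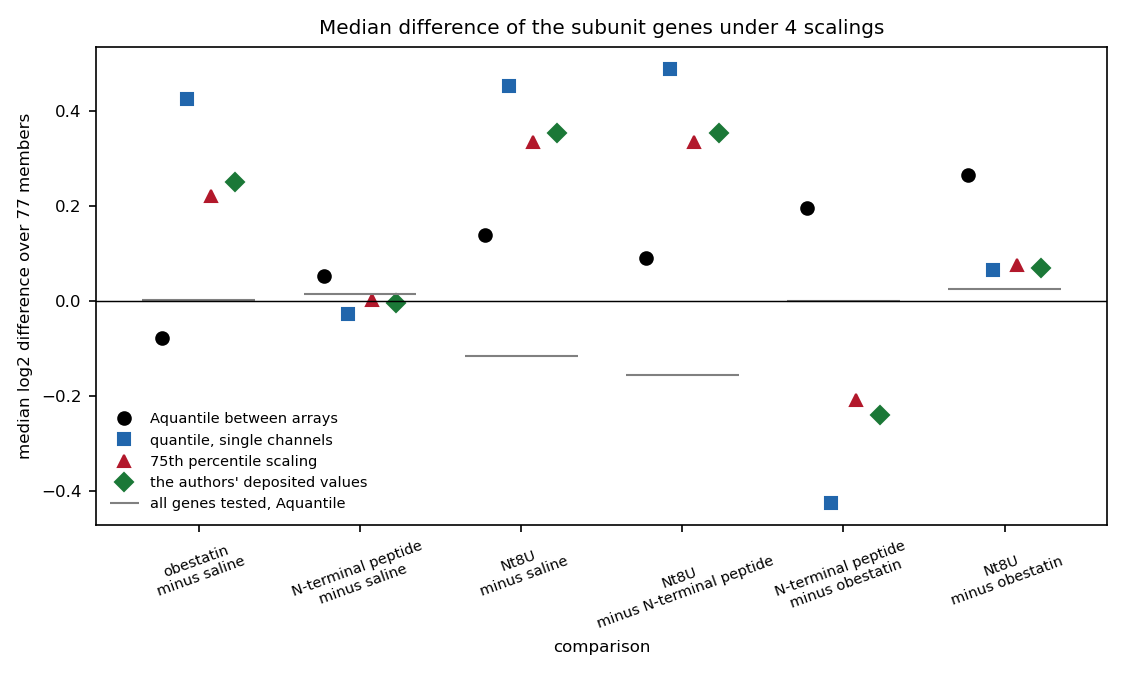
Median log2 difference of the 77 members (vertical axis) in each of the 6 comparisons under 4 scalings, with a grey line for the median of all genes tested under the main one. For obestatin against saline the main value is -0.08 and the others are above 0.2, and for N-terminal peptide against obestatin the main value is 0.20 and the others are below -0.2.

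Other genes of the pathway were taken from lists. Of the complex II genes and electron carriers, all 10 were tested and 0 passed the adjusted test in any comparison. Against saline, their median difference was -0.02 for obestatin, -0.10 for N-terminal peptide and 0.62 for Nt8U. The medians of all genes were 0.0017, 0.015 and -0.12. Sdhc, a membrane subunit of complex II, had 10.67 and 10.29 in the N-terminal peptide group and 12.18 and 11.26 in Nt8U, a difference of 1.24 ± 0.31 (SE, n = 2 per group, limma adjusted p = 0.25). Etfa, which passes electrons from fatty acid oxidation, was lower in the N-terminal peptide group than in obestatin by -1.36 ± 0.39 (limma adjusted p = 0.33). Of the 20 tricarboxylic acid cycle and pyruvate genes, 19 were tested and 0 passed. Their median differences from saline were 0.0056 for obestatin, 0.057 for N-terminal peptide and 0.66 for Nt8U. Pcx, pyruvate carboxylase, had 12.33 and 11.68 (saline), 14.35 and 13.18 (obestatin), 12.40 and 10.80 (N-terminal peptide) and 15.52 and 13.08 (Nt8U). Its difference between Nt8U and N-terminal peptide was 2.70 ± 0.50 (SE, n = 2 per group, limma adjusted p = 0.19), and between N-terminal peptide and obestatin -2.16 ± 0.50 (limma adjusted p = 0.25). Pcx was highest in Nt8U replicate 1 and lowest in N-terminal peptide replicate 2, as was the median of adipocyte markers (15.11 and 8.66). The part of adipocyte content in the differences of these lists was not tested.

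Of 39 assembly factors 38 were tested and 0 passed. Their median differences from saline were -0.16 for obestatin, 0.03 for N-terminal peptide and -0.01 for Nt8U. The smallest p of each direction over the 6 comparisons belonged to the complex I assembly factors Ndufaf6 (0.75 ± 0.33, Nt8U against N-terminal peptide, limma adjusted p = 0.50) and Tmem126b (-0.69 ± 0.35, N-terminal peptide against obestatin, limma adjusted p = 0.57). Of 19 regulators and adenine nucleotide carriers 18 were tested and 0 passed. Their medians against saline were 0.20 for obestatin, -0.04 for N-terminal peptide and 0.23 for Nt8U. Ppargc1b, a coactivator of mitochondrial genes, was higher in Nt8U than in N-terminal peptide by 1.03 ± 0.31 (SE, n = 2 per group, limma adjusted p = 0.33), and Polrmt, the mitochondrial RNA polymerase, was lower in obestatin than in saline by -0.71 ± 0.30 (limma adjusted p = 0.60). None of the 13 mitochondrially encoded subunits was among the genes tested. None of the members was in the authors' deposited lists for the N-terminal peptide, which hold 109 probes.

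Different probes of a gene were compared for the 21 members that had more than 1. Of 29 further probes, 23 were well above background in all samples, and 14 of these correlated with the chosen probe over the 8 samples at r above 0.8. Those of Atp5a1 (0.33) and Atp5pb (-0.02) fell under 0.5, where the chosen probes had ranges of 0.86 and 0.56 log2 units, narrow beside those of the isoforms. This further Atp5pb probe had 10.20 and 10.22 in saline and 10.12 and 9.97 in N-terminal peptide, opposite in direction to the chosen one. The further Uqcrh probe had 14.60 and 14.31 in saline and 14.89 and 14.12 in N-terminal peptide, so those groups overlapped. Further probes of Atp5h and Ndufa7 kept the direction for obestatin against saline.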

How the data were processed

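RNA was measured on 2-colour Agilent arrays covering the mouse genome. The deposited intensities are median spot and background signals from Feature Extraction 10.5.1.1, per the file headers. The authors also deposited log2 values, which follow the log2 median signal of a scanner channel with the 75th percentile of each column at 0; they used GeneSpring GX 10, per the deposited readme. Channels were assigned to samples by that readme, and the authors' deposited fold columns followed the same channels (r = 1.00 over 109 probes). The deposited log2 table labels its dyes the other way round, so replicate numbers within a group depend on this choice and the groups do not.

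Background was corrected with normexp (offset 50), followed by loess within arrays, Aquantile between arrays and separation of channels, in limma 3.58.1 (R 4.3.3). Control spots took no part in loess (weight 0) or in later steps. Spots were averaged by probe. A spot counted as saturated when marked so in the files or at the scanner's top signal (65527). The scanner files used here carry no gene symbols, so names came from the platform annotation: of 41174 probes, 32664 had 1 symbol, 45 several and 8465 none. Symbols updated through Entrez IDs gave the same 78 members. Group means with a dye term were fitted over all 8 samples (residual degrees of freedom 3), with Benjamini-Hochberg adjustment over 15414 genes, two-sided, at 0.05. SE are the moderated errors of that fit. The code of the fit was run on simulated data, where success was required only at a spread much smaller than that of the data. No statement about power at the real spread is drawn from that run. Precision is limited by the 4 arrays.

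The members and all gene lists were chosen with earlier results of these data known. Named genes were the isoform genes and their counterparts, the smallest p per complex against saline and per direction between peptides, the 5 widest and 5 narrowest ranges, saturated or undetected members, and the smallest p of each pathway list. Alternatives changed the signal, scaling, filter, probe, dye term, a germ cell covariate and the samples.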

Additional observations from a re-analysis of the deposited data

How the results depend on the processing

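No paired analysis was possible because the labels give no replicate numbers, and the number given in accession order equals the dye, which the model already holds.

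No member passed the adjusted test under any alternative except without obestatin replicate 1. In that fit the dye term cannot be told apart from the germ cell difference between the replicates of the other groups. Leaving out the dye term or loess cannot move a difference between group means here, since each group holds both dyes of 1 array. Their p-values can move. For Nt8U against saline, members at an unadjusted p under 0.05 numbered 4 in the main fit, 1 without loess and 2 without the dye term. They numbered 0 with processed signals, 0 with 75th percentile scaling and 8 with no filter on dim probes. The shares of all genes were 8.1%, 5.6%, 3.7%, 7.2%, 6.2% and 8.6% in the same order. Changing the filter on dim probes, the probe rule or the germ cell covariate, or using the scanner software's processed signals, left the genes called at 0 and moved the members' median by less than the spread between replicates, whereas scaling moved it further in all comparisons but N-terminal peptide against saline. For obestatin against saline it was 0.425 with quantile normalization of single channels, 0.222 with 75th percentile scaling and 0.25 with the authors' deposited values. In the same order it was 0.454, 0.335 and 0.355 for Nt8U against saline, 0.490, 0.335 and 0.355 for Nt8U against N-terminal peptide, -0.426, -0.208 and -0.24 for N-terminal peptide against obestatin, and 0.0661, 0.0769 and 0.07 for Nt8U against obestatin. The cause was not tested.

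Without the 3 samples rich in germ cell markers, an alternative chosen after seeing the data, saline, N-terminal peptide and Nt8U keep 1 sample each and the spread comes from the obestatin pair alone, so its p-values support nothing. With it, 29 genes were called for Nt8U against saline, where the members' median was 0.339. The members with an unadjusted p under 0.05 then numbered 3 for obestatin and 3 for N-terminal peptide against saline, 7 for Nt8U against saline, 12 for Nt8U against N-terminal peptide, 9 for N-terminal peptide against obestatin and 6 for Nt8U against obestatin. The shares of all genes were 15.5%, 7.16%, 23.2%, 26.7%, 11.0% and 15.4%, and those of the members 3.90%, 3.90%, 9.09%, 15.6%, 11.7% and 7.79%.

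Signs turned for single genes, none of them called. Under quantile normalization the difference was 0.41 for Cox4i1 and 0.18 for Ndufb10 (both Nt8U against N-terminal peptide), -0.11 for Ndufb10 (N-terminal peptide against obestatin), and 0.18 for Cox7a2, 0.099 for Ndufa7 and 0.29 for Atp5h (obestatin against saline). With 75th percentile scaling Atp5h had 0.060 and Cox6a1 -0.0026 (Nt8U against saline), and with processed signals Cox6a1 had -0.0079. Cox6a1 was saturated in 5 of the 8 samples, so no direction is drawn from its values. With the authors' deposited values Cox7a2 had 0.005 and Atp5h 0.09, without the 3 samples Cox7a2 had 0.44 and Cox7b2 1.23 (obestatin against saline), and with the germ cell covariate Cox8c had 0.35 (Nt8U against saline).

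Leaving out 1 sample at a time, with the lone sample of a group assumed to vary like the others, gave these ranges. Genes called ranged from 0 to 2727 for obestatin against saline, 0 to 3488 for N-terminal peptide against obestatin and 0 to 1507 for Nt8U against obestatin, each time with calls only without obestatin replicate 1, and were 0 elsewhere. The members' median ranged from -0.231 to 0.0578 for obestatin against saline, -0.0067 to 0.213 for N-terminal peptide against saline, -0.0662 to 0.347 for Nt8U against saline, -0.0184 to 0.159 for Nt8U against N-terminal peptide, 0.0346 to 0.284 for N-terminal peptide against obestatin and 0.177 to 0.315 for Nt8U against obestatin. Members at an unadjusted p under 0.05 ranged from 0 to 9, 0 to 1, 0 to 5, 1 to 5, 1 to 13 and 0 to 8 in the same order, where the share of all genes ranged from 1.83% to 37.0%, 0.331% to 1.75%, 1.80% to 12.9%, 4.95% to 17.8%, 4.33% to 39.7% and 0.564% to 23.3%. Of single genes, obestatin against saline ranged from 0.44 to 1.88 for Cox6b1, -4.59 to 0.31 for Cox6b2, -1.28 to 0.37 for Cox7a2, -4.86 to 1.52 for Cox7b2 and 0.09 to 0.91 for Uqcrb. Nt8U against saline ranged from -0.30 to 0.61 for Cox6a1, whose saturated spots allow no direction to be drawn from this range. The same comparison ranged from -2.36 to 1.20 for Cox8c, -1.22 to -0.27 for Cox7a2l, 0.28 to 0.79 for Uqcrfs1 and 0.55 to 1.29 for Atp5k. For Nt8U, Cox4i1 ranged from -1.15 to 0.15 against N-terminal peptide and Cox6a2 from -0.82 to 0.014 against obestatin.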
